A study of Homo sapiens with 4 samples.

Results

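The 4 human tropomyosin genes TPM1, TPM2, TPM3 and TPM4 were followed through RNA sequencing of Huh1 and Huh7 cells, 2 established lines from human liver cancer. The genes are 4 of 18382 symbols in the deposited values, found by symbol, and each stood on 1 row of every library. The family was selected on measured values: TPM4 was among the genes with the largest difference under ODC1 siRNA in these same libraries. The siRNA differences of the 4 genes are therefore given as a description, with no test, while the difference between the lines, which the choice did not use, was tested. Each line was treated with a negative control siRNA or with an siRNA against ODC1, the gene of ornithine decarboxylase, the first enzyme of polyamine synthesis, and each of the 4 combinations is 1 library with no replicate, of 10215332 to 13384836 reads as recovered from the deposited values. No source used here gives the siRNA sequences, their number or the time after treatment. What the ODC1 siRNA does through ODC1 and what it does otherwise cannot be told apart. ODC1 checks the labels: with ODC1 siRNA its RPKM stood at 0.242 times the control in Huh1 and at 0.0449 times the control in Huh7.

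Tropomyosins are coiled-coil dimers that lie head to tail along actin filaments and influence which myosins and other actin-binding proteins can reach the filament. In striated muscle they work with troponin to make contraction depend on calcium, and in other cells they stabilise stress fibres and other filament populations. Each gene makes several proteins from alternative starts and exons: TPM1 and TPM2 give the long forms of muscle and stress fibres, TPM3 gives muscle and short cytoskeletal forms, and TPM4 is mainly known for a short cytoskeletal form.

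Each gene is represented by a single RefSeq transcript, so its value does not separate the forms. TPM1 (NM_001018004) lies on chromosome 15 from 63042758 to 63071222, plus strand. TPM2 (NM_003289) lies on chromosome 9 from 35682926 to 35690121, minus strand. TPM3 (NM_152263) lies on chromosome 1 from 154167465 to 154192211, minus strand. TPM4 (NM_003290) lies on chromosome 19 from 16076306 to 16103005, plus strand. These positions are those of GENCODE release 29 on GRCh38 and not of hg19, the build named in the submitters' processing notes. GENCODE gives TPM1 19 coding transcripts, TPM2 8, TPM3 12 and TPM4 14. Of the bases of the listed transcript, 100% lie in some other coding transcript for TPM1, 94.9% for TPM2, 90.5% for TPM4 and 59.3% for TPM3. Levels of the 4 genes are comparable per length only as far as the listed transcript stands for the forms present. GENCODE also names 8 pseudogenes after TPM3 and 1 after TPM4, whose reads the authors' counting could have shared with the parent gene.

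The start regions of TPM4 and TPM2 are shown because these genes differed most between the libraries. TPM4 has an upstream start, used by a longer form, and a downstream start near that of the listed transcript, and the deposited value does not tell them apart. The sequences are from RefSeq on GRCh38.p14, from 250 bases before to 50 bases after the start, 5′ to 3′ on the gene's strand. The table holds 3 windows for TPM4, on the plus strand, and 2 for TPM2, on the minus strand. A further TPM4 window and a TPM2 window that overlaps the one shown are left out. Capitals mark the 1 match found to the SRF CArG box, the element bound by serum response factor.

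TPM4 upstream start, chr19:16067288-16067587: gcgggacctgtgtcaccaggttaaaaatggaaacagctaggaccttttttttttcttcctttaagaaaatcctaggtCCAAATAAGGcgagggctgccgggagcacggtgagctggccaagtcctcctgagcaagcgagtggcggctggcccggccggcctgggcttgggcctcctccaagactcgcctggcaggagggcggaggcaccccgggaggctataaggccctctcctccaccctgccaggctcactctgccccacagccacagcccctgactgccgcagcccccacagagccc
TPM4 downstream start, chr19:16076245-16076544: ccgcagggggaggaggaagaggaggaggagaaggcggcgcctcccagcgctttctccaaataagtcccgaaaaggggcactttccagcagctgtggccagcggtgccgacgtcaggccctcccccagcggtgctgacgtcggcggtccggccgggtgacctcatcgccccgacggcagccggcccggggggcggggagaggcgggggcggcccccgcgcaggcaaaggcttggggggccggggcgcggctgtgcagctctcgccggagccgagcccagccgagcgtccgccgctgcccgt
TPM2, chr9:35690007-35690306: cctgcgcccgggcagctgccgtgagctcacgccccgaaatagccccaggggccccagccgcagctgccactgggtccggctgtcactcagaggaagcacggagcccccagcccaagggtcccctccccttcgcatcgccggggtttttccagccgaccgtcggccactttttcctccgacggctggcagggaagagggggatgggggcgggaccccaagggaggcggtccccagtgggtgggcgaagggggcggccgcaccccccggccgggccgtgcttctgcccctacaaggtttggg

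Windows for all 4 genes were searched on both strands for 3 elements known from cytoskeletal genes, chosen with the expression values already known. The CArG box was matched in 1 window, the upstream TPM4 start, 173 bases before the start, and it occurs in 1.29% of the 35116 RefSeq windows. The TEAD core GGAATG, present in 14% of all windows, and the AP-1 element TGANTCA, present in 7.71%, were matched in none of the 8 tropomyosin windows. The table holds no window at the start of the listed TPM1 or TPM3 transcript. The expression data do not bear on binding at these places.

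TPM4 encodes a short cytoskeletal tropomyosin and had the largest siRNA difference of the family in both lines. Its Huh1 level was 19.1 RPKM (reads scaled to transcript length and library size) in the control library and 50.4 RPKM in the ODC1 library. The Huh7 levels were 170 RPKM and 449 RPKM. Both ODC1 libraries were above the control library of their line, and both Huh7 libraries were above both Huh1 libraries. The ratio of ODC1 to control RPKM was 2.64 in Huh1 (95% counting interval 2.41 to 2.89) and 2.65 in Huh7 (2.56 to 2.73). These are exact binomial intervals on about 683 and 1510 reads in Huh1 and about 5513 and 12220 reads in Huh7, and they cover counting error only. The ratios thus lay within each other's counting interval although the starting level was 8.86 times as high in Huh7. On log2(RPKM + 1) the differences were 1.35 and 1.40. They ranked 1 of 10912 genes in Huh1 and 5 of 11416 in Huh7, a position that was part of the reason for the choice.

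**Figure D1:**
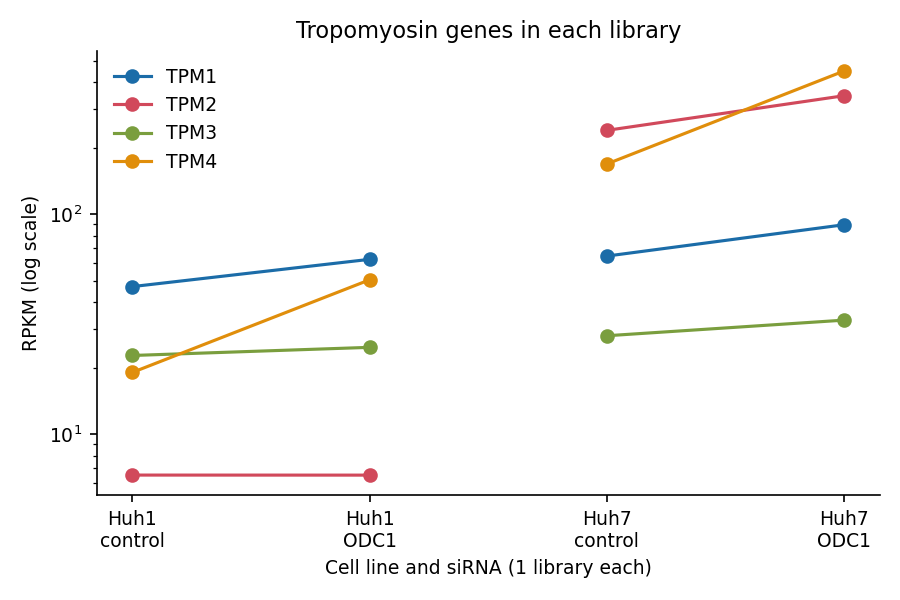
RPKM of the 4 tropomyosin genes on a log axis, 1 point per library, with lines joining control and ODC1 siRNA within a cell line. TPM4 runs from 19.1 to 50.4 (Huh1) and from 170 to 449 (Huh7) on parallel lines, and TPM2 is at 6.53 RPKM in both Huh1 libraries but at 241 and 346 RPKM in Huh7.

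No other tropomyosin gene matched the TPM4 difference in size. TPM1, whose products include the alpha tropomyosins of muscle and stress fibres, stood at 47.0 RPKM with control and 62.5 RPKM with ODC1 siRNA in Huh1. In Huh7 it stood at 64.6 and 89.7 RPKM. It was higher with ODC1 siRNA in both lines, at 1.33 times the control in Huh1 (counting interval 1.19 to 1.49) and 1.39 times in Huh7 (1.26 to 1.53). On the log2 scale these are differences of 0.40 and 0.47, ranks 390 of 10912 and 578 of 11416.

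TPM2, the gene of beta tropomyosin, differed by line. With control and ODC1 siRNA it stood at 6.53 and 6.53 RPKM in Huh1, a ratio of 0.999 with a wide counting interval of 0.759 to 1.31 on about 122 and 102 reads. In Huh7 it stood at 241 and 346 RPKM, a ratio of 1.44 (1.38 to 1.498). The log2 differences were -0.00065 and 0.52. The 2 counting intervals did not overlap, but with 1 library per combination the difference in response between the lines was not tested.

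TPM3, which gives the slow-muscle form and short cytoskeletal forms, had the smallest difference of the 3 genes that were higher with ODC1 siRNA in both lines. The Huh1 libraries gave 22.8 and 24.9 RPKM, and the Huh7 libraries 28.1 and 33.1 RPKM. The ratio was 1.09 in Huh1, with a counting interval that included 1 (0.953 to 1.25), and 1.18 in Huh7 (1.04 to 1.33). The log2 differences were 0.12 and 0.23.

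Read as a family, 3 of 4 genes were higher with ODC1 siRNA in Huh1 and 4 of 4 in Huh7, and TPM4 alone was at least 2-fold higher, in each line. Of all 12039 genes tested, 6546 were higher with ODC1 siRNA in Huh1 and 5914 in Huh7. Among genes that reached 1 RPKM in a library of the line, 0.055% were at least 2-fold higher in Huh1 and 0.342% in Huh7. The median log2 difference over all genes tested was 0.02 in Huh1 and -0.00 in Huh7. No test was made on these counts, since the siRNA contrast led to the choice of the family.

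**Figure D2:**
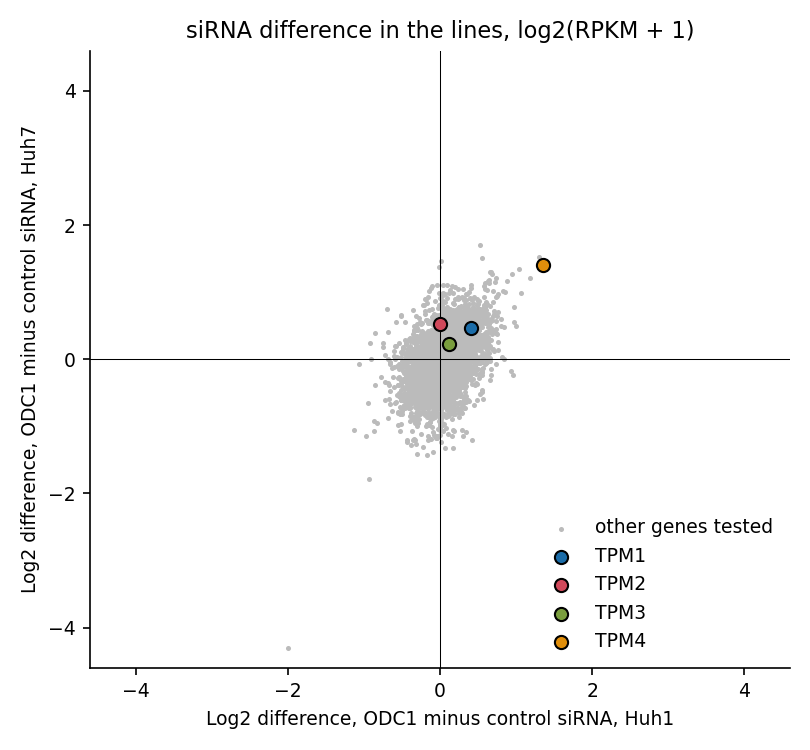
Log2(RPKM + 1) with ODC1 siRNA minus control siRNA in Huh1 (x axis) and Huh7 (y axis), 1 grey point per tested gene and 4 coloured points for the tropomyosin genes. TPM4 lies at 1.35 and 1.40, at the upper right edge, while TPM1 (0.40 and 0.47), TPM2 (-0.00065 and 0.52) and TPM3 (0.12 and 0.23) lie within the grey cloud, and the lone point at the lower left is ODC1.

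The difference in siRNA response between the lines, Huh7 minus Huh1, was 0.05 on the log2 scale for TPM4, 0.06 for TPM1, 0.11 for TPM3 and 0.52 for TPM2. Over the 12039 genes that reached 1 RPKM in some library, the median absolute difference was 0.15. Of these genes, 17.1% had a smaller absolute difference than TPM4, 23.4% than TPM1, 38.9% than TPM3 and 93.8% than TPM2. The TPM4 response was thus close between the lines, and that of TPM2 was farther apart than for most genes. The siRNA differences led to the choice of the family, so these positions are a description and were not tested.

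All 4 tropomyosin genes were called higher in Huh7 than in Huh1, TPM2 and TPM4 by far the most. Averaged over both siRNAs on the log2 scale, TPM2 was higher in Huh7 by 5.27 (SE 0.12, limma adjusted p = 3.33e-09) and TPM4 by 3.11 (SE 0.066, adjusted p = 2.70e-09). TPM1 was higher by 0.48 (SE 0.070, adjusted p = 0.000258) and TPM3 by 0.34 (SE 0.083, adjusted p = 0.0051). Each gene was higher in Huh7 with each siRNA, and for TPM1 the line difference was about the size of its siRNA differences. With control siRNA the ratio of Huh7 to Huh1 RPKM was 36.9 for TPM2 (counting interval 30.7 to 44.4), 8.86 for TPM4 (8.18 to 9.60), 1.38 for TPM1 (1.24 to 1.53) and 1.23 for TPM3 (1.09 to 1.40). With ODC1 siRNA it was 53.1 for TPM2 (43.6 to 65.2), 8.90 for TPM4 (8.43 to 9.39), 1.44 for TPM1 (1.30 to 1.59) and 1.33 for TPM3 (1.17 to 1.52).

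Being called is common in this comparison, since 43.1% of the 12039 genes tested were called higher in Huh7. A call with at least a 2-fold difference was made for 16.2% of genes, and for TPM2 and TPM4 among the members. TPM2 ranked 21 from the top by its line difference and TPM4 ranked 196, while TPM1 ranked 3925 and TPM3 ranked 4684. The median line difference over all genes was 0.13, and it was 0.02 after quantile normalization, so TPM1 and TPM3 stood only slightly above the other genes. The call for TPM1 was lost without an siRNA term (adjusted p = 0.0748, range over the alternatives 0.000439 to 0.0748) and that for TPM3 without a filter (adjusted p = 0.058, range 0.00646 to 0.058). The test has 1 residual degree of freedom, the difference in siRNA response between the lines, and measures the spread between these libraries, not between independent cultures. Limma added a prior of 7.42 degrees of freedom, so the standard errors and p-values rest mostly on spread borrowed from other genes. The residual itself comes from the siRNA differences, which did lead to the choice.

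The order of the 4 genes by level per length, in RPKM, differed between the libraries. In Huh1 with control siRNA the order was TPM1, TPM3, TPM4 and TPM2, with TPM3 (22.8 RPKM) and TPM4 (19.1 RPKM) as close neighbours. In Huh1 with ODC1 siRNA TPM4 (50.4 RPKM) stood second after TPM1 (62.5 RPKM). In Huh7 with control siRNA TPM2 (241 RPKM) led, then TPM4 (170 RPKM), TPM1 and TPM3, and with ODC1 siRNA TPM4 (449 RPKM) stood above TPM2 (346 RPKM). Without replicates the spread of these levels between cultures is unknown. TPM4 ranked 131 among all 18398 rows in Huh7 with ODC1 siRNA and 3853 in Huh1 with control siRNA.

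Summed over the 4 genes, tropomyosin expression was 95.5 RPKM in the Huh1 control and 144 RPKM in the Huh1 ODC1 library, and 503 and 918 RPKM in those of Huh7. The sum was thus 1.51 times the control in Huh1 and 1.82 times in Huh7. Without TPM4 it was 1.23 times the control in Huh1 and 1.41 times in Huh7. TPM4 made up 64.1% of the difference in the sum in Huh1 and 67.3% in Huh7. The second contributor was TPM1 in Huh1 (31.7%) and TPM2 in Huh7 (25.4%).

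The composition followed both line and siRNA. TPM4 held 20.04% of the summed RPKM in Huh1 with control siRNA and 34.95% with ODC1 siRNA, and 33.7% and 48.9% in Huh7. TPM1 held 49.2% and 43.3% in Huh1 but 12.8% and 9.78% in Huh7. TPM2 held 6.84% and 4.52% in Huh1 but 47.9% and 37.7% in Huh7. TPM3 held 23.9% and 17.2% in Huh1 and 5.58% and 3.60% in Huh7. In both lines TPM4 gained share and each of the other genes lost it. Shares of reads instead of RPKM give TPM4 a larger part, because its listed transcript is the longest of the 4 at 2666 bases and that of TPM1 the shortest at 977. By reads TPM4 was the largest of the 4 in every library. It held 36.2% against 32.6% for TPM1 in the Huh1 control, and 50.6% against 37.5% for TPM2 in the Huh7 control. Which gene is largest with control siRNA thus depends on the scaling to the listed lengths.

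**Figure D3:**
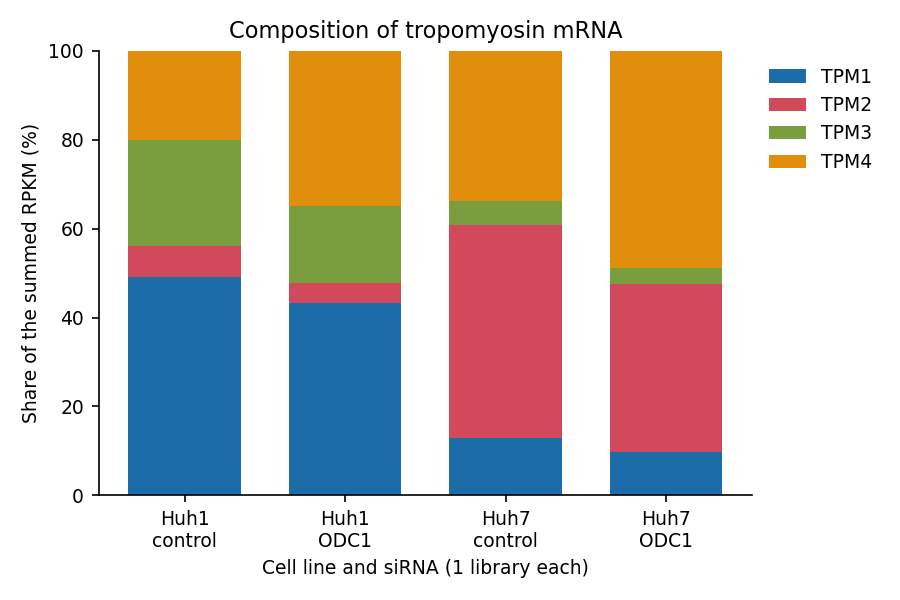
Share of the summed tropomyosin RPKM held by each gene, in percent, as 1 stacked bar per library. TPM1 (49.2%) is the largest part in Huh1 with control siRNA and TPM2 (47.9%) in Huh7 with control siRNA, and TPM4 grows with ODC1 siRNA to 34.95% in Huh1 and 48.9% in Huh7.

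The label of the cells was checked with markers. All 15 hepatocyte markers were at 1 RPKM or more in every library, with sums of 6732 and 6093 RPKM in Huh1 and 3921 and 3143 RPKM in Huh7. Of 8 blood cell and endothelial markers present, 0 reached 1 RPKM in any library, and their sums lay between 0.284 and 0.830 RPKM. Of 10 fibroblast and smooth muscle markers, 1 reached 1 RPKM in the Huh1 libraries (LUM) and 5 in the Huh7 libraries. Their summed RPKM was 12.4 and 16.04 in Huh1 and 299.8 and 387 in Huh7, so it moved with the line as TPM2 and TPM4 did. The collagen gene COL1A1 had 0.115 and 0.0763 RPKM in the Huh1 libraries and 107 and 128 RPKM in the Huh7 libraries. THY1 was listed at 0 in 3 libraries and at 0.00489 RPKM in Huh7 with control siRNA, and DES stayed at or under 0.128 RPKM in all. The part of these genes in the tropomyosin differences was not tested, and in bulk RNA fewer cells of a type and less RNA per cell cannot be told apart. Of the striated muscle markers only NEB and TTN reached 1 RPKM, and of 8 troponin genes only TNNT1 did, at 1.43 RPKM in Huh7 with control siRNA.

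The genes most like each member over the 4 libraries were sought by the distance between profiles of log2(RPKM + 1) centred on their mean, among 8632 genes with a mean of at least 5 RPKM. The distance is in log2 units over 4 libraries and carries no test. For TPM4 they were the metallothionein genes MT1E (0.69) and MT1X (0.80), the growth factor binding protein gene IGFBP3 (0.83), the transgelin gene TAGLN (0.86) and the calponin gene CNN1 (0.90). IGFBP3 had 20.1 and 32.8 RPKM with control and ODC1 siRNA in Huh1, and 92.0 and 223 RPKM in Huh7. TPM4 thus had no neighbour as close as the other members did. This follows in part from the choice, since TPM4 was picked for a large siRNA difference that few genes share.

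For TPM2 the nearest genes were the collagen gene COL1A2 (0.0097), PKDCC (0.10), the natriuretic peptide gene NPPB (0.16), MAGEB2 (0.22) and CCDC80 (0.23), each at 0.299 RPKM or less in the Huh1 libraries. COL1A2 had 0.0138 and 0.0165 RPKM there, and 31.4 and 45.8 RPKM in Huh7. These genes thus share with TPM2 the step on log2(RPKM + 1) and not the level. At such low Huh1 values the step depends largely on the added 1. In RPKM the lines differed by a larger factor for each of these genes than for TPM2. For TPM1 they included ZNF100 (0.061), the myosin phosphatase catalytic subunit gene PPP1CB (0.064), BRPF1 (0.066) and CTSB (0.067). For TPM3 they were GATAD2B (0.016), the proteasome gene PSMC3 (0.024), CHCHD5 (0.028), NID1 (0.028) and PTGFRN (0.030), in a part of the range where many genes lie.

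Genes of actin filaments, their binding proteins and their regulators were then examined over both lines, with limma and the line as a block. Of 98 tested genes in 10 lists of actin-associated genes, limma called 7 higher and 0 lower with ODC1 siRNA, where 1.5% of all genes were called higher and 0.615% lower. At an unadjusted p under 0.05 there were 33 of the 98, 29 of them higher, where 19% of all genes passed that mark and 10.7% passed it on the higher side. The lists were chosen with earlier results of these data known, so these counts describe the lists and do not test them. The p-values come from the same limma fit as the line test, with 1 residual degree of freedom and a prior of 7.42. The median log2 difference of the 98 genes was 0.05 in Huh1 and 0.11 in Huh7. The 7 calls did not hold widely: each was lost under at least 5 of the alternative settings, with adjusted p from 0.00583 to 1 over all of them.

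Myosin II pulls on tropomyosin-coated filaments, and the list of myosin II genes and regulators held 4 of the calls among 15 genes tested. MYH9, the non-muscle myosin heavy chain, rose by 0.36 (adjusted p = 0.0449) and the light chain gene MYL6 by 0.30 (adjusted p = 0.0421). The small GTPase genes RHOB and RHOC, relatives of the stress fibre regulator RHOA, rose by 0.57 (adjusted p = 0.0299) and 0.37 (adjusted p = 0.0483). PPP1CB, at 0.39, did not pass (adjusted p = 0.0561). The list had medians of 0.11 in Huh1 and 0.23 in Huh7.

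Among 19 capping, severing and monomer-binding genes, 3 were called. WDR1, which helps cofilin disassemble filaments, rose by 0.44 (adjusted p = 0.0276). The actin bundling protein gene VIL1 rose by 0.41 (adjusted p = 0.0421) and TMSB10, a thymosin that binds actin monomers, by 0.35 (adjusted p = 0.0202). TWF2, a twinfilin, was at -0.48 (adjusted p = 0.0686). The list's medians were -0.00 and 0.16.

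The other lists held no call over both lines, and their counts at an unadjusted p under 0.05 are to be read against the same 19% and 10.7% of all genes. Caldesmon, calponins and transgelins had 6 genes tested, of which 4 had an unadjusted p under 0.05, all higher. TAGLN had 2.27 and 2.74 RPKM in the Huh1 libraries and 21.4 and 46.5 RPKM in the Huh7 libraries, log2 differences of 0.19 and 1.08 (adjusted p = 0.113). For CNN1 they were 0.16 and 1.09 (adjusted p = 0.163) and for CNN2 0.25 and 0.25 (adjusted p = 0.0927). Of 4 actin genes tested, 2 had an unadjusted p under 0.05. ACTB, the most abundant actin, was at 0.15 over both lines, and ACTG2, the smooth muscle actin of visceral tissue, had differences of 0.09 (Huh1) and 1.11 (Huh7), with adjusted p = 0.223 over both lines. The actin genes are similar in sequence, and reads may have been divided among them. In Huh7 alone ACTG2, TAGLN and CNN1 were thus at least 2-fold higher by size, as TPM4 was, without a replicate check.

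Cofilins with their kinases and phosphatases had 4 of 10 genes at an unadjusted p under 0.05, all higher, with SSH1 at 0.24 and PDXP at 0.25 over both lines and SSH2 at -0.30. Actin crosslinkers and adhesion adaptors had 3 of 17, all higher, with the talin gene TLN1 at 0.34 (adjusted p = 0.0941), the zyxin gene ZYX at 0.26 and the fascin gene FSCN1 at -0.27. Formins, which build unbranched filaments, had 1 higher and 1 lower of 11, with DIAPH1 at 0.26, FMNL1 at 0.30 and FHOD1 at -0.49. SRF and its cofactors had 1 of 6, higher, with SRF itself at 0.16, ELK4 at 0.37 and MKL2 at -0.17. The Arp2/3 complex, which builds branched filaments that tropomyosin seldom decorates, had 0 of 8, with ARPC1A at 0.11, ARPC5 at -0.13 and ARPC2 at -0.04. Tropomodulins, which cap tropomyosin-coated pointed ends, had 0 of 2, with TMOD1 at -0.17 and TMOD3 at 0.07, and the troponin gene TNNT1 was at -0.22.

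**Figure D4:**
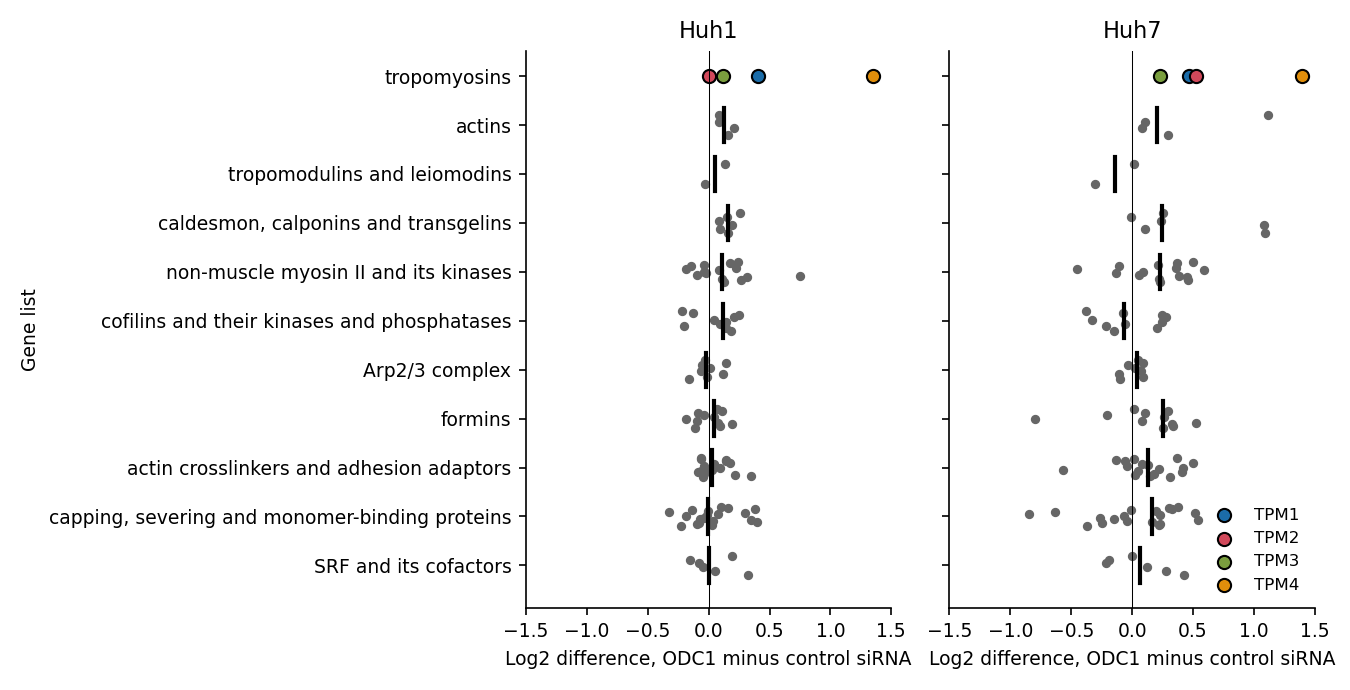
Log2(RPKM + 1) with ODC1 siRNA minus control siRNA in Huh1 (left) and Huh7 (right), 1 point per tested gene in each list of actin-associated genes, with a vertical bar at the list's median and the 4 tropomyosin genes in colour in the top row. TPM4 (1.35 and 1.40) lies to the right of every listed gene in both lines, and in Huh7 the genes nearest to it are ACTG2 (1.11), CNN1 (1.09) and TAGLN (1.08).

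Between the lines, 68 of the 98 actin-associated genes (69.4%) were called higher in Huh7, where 43.1% of all genes were called higher. Another 16 were called lower, where 30.8% of all genes were called lower. Their median line difference was 0.73 for the 98 genes, against 0.13 for all genes. All 6 caldesmon, calponin and transgelin genes tested and all 4 actin genes were called higher. On log2(RPKM + 1), CNN1 was higher by 3.34 and TAGLN by 3.22, close to TPM4 at 3.11. On the same scale FLNC, a filamin of muscle, was higher by 5.13, close to TPM2 at 5.27. CNN1 (0.0471 RPKM) and FLNC (0.0736 RPKM) were near 0 in Huh1 with control siRNA, where the added 1 shrinks the difference. In RPKM the lines differed by a larger factor for CNN1 than for TPM4, and for FLNC than for TPM2. The capping protein gene CAPG was higher by 4.07, FSCN1 by 3.11 and TMSB4X by 2.79. MYL9, the regulatory light chain of stress fibre myosin, was higher by 1.75, ACTG1 by 1.59 and the cofilin kinase gene LIMK2 by 2.12. MYH14, another non-muscle myosin heavy chain, was lower in Huh7, at -4.34 on the log2 scale, as were the plastin gene LCP1 at -3.26, the formin gene DIAPH2 at -2.05 and ARPC1B at -0.93. The line difference therefore went both ways among the actin-associated genes, while all 4 tropomyosin genes were higher in Huh7.

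Some hepatocyte and fibroblast markers were also called for the siRNA. Of 15 hepatocyte markers limma called 3 lower and 1 higher over both lines, where 0.615% of all genes were called lower and 1.5% higher. They were ALB at -0.32 (adjusted p = 0.0232), FGG at -0.38 (adjusted p = 0.0327), FGA at -0.36 (adjusted p = 0.0336) and TTR at 0.47 (adjusted p = 0.0494). The list's medians were -0.07 in Huh1 and -0.34 in Huh7, against 0.02 and -0.00 over all genes tested. Of 5 tested fibroblast and smooth muscle markers LUM rose by 0.39 (adjusted p = 0.0403), with list medians of 0.00 and 0.37. These 5 calls were each lost under at least 5 of the alternative settings. Their part in the tropomyosin values was not tested.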

How the data were processed

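Libraries came from total RNA with a TruSeq preparation, per the labels' protocols. The submitters' processing notes list CASAVA 1.8.2, TopHat2 2.0.9 and the build hg19. How reads were counted, with which annotation and whether by strand, was not given in the sources used here. The authors deposited RPKM values, 1 row per RefSeq transcript, in files without a header. The members and gene lists, and the rule for naming genes, were chosen with earlier results of these data known. That rule takes from each list the 3 largest siRNA and the 2 largest line differences and all siRNA calls, and 5 like genes per member. Of these, 1 is not reported here.

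RPKM is not a count, so no count model was used. Depth was recovered from values under 0.3 RPKM and GENCODE release 29 lengths, and lay between 10215332 and 13384836 reads per library. Only 19.1% to 22.6% of these low values came out as whole reads (tolerance 0.01 reads) and 20.5% to 23.5% were worth less than 0.9 reads, so reads are approximate. Values were analysed as log2(RPKM + 1), which understates changes of weakly expressed genes. A model with terms for line and siRNA and an intensity trend was fitted in limma 3.58.1 (R 4.3.3) to the 12039 rows with at least 1 RPKM in any library, with Benjamini-Hochberg adjustment at 0.05. The lines pair control and ODC1 libraries, so the line term is the block. The fit was also run on simulated data in which the siRNA response did not differ between the lines. That difference is the only residual here, so the run could not check the p-values. Within a line genes were counted by size, at 2-fold, with no p-value.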

Additional observations from a re-analysis of the deposited data

Results flagged for a closer look

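Of the siRNA differences of the tropomyosin genes and the named list genes, 11 pointed in opposite directions in Huh1 and Huh7, with 1 pair of libraries per line, and none of these differences between the lines was tested. The share of all tested genes with opposite directions was not counted. Median differences over all tested genes were 0.02 in Huh1 and -0.00 in Huh7. TPM2 was at -0.00065 in Huh1 and 0.52 in Huh7 on the log2 scale, and its Huh1 value lies within its counting error of 0, so its direction there is not set. FSCN1, the fascin gene, was at 0.03 and -0.57, the plastin gene LCP1 at -0.09 and 0.41, and the filamin gene FLNC at -0.04 and 0.18. TNNT1, a troponin gene listed at 0 in Huh1 with control siRNA, was at 0.04 and -0.47. The cofilin phosphatase gene SSH3 was at 0.05 and -0.33, the capping protein gene CAPG at -0.09 and 0.23, ARPC1B of the Arp2/3 complex at 0.12 and -0.11, and the formin gene DIAPH2 at -0.09 and 0.08. The collagen gene COL1A1 was at -0.05 and 0.26 and NEB, the nebulin gene, at -0.13 and 0.06. Several of these genes were under 1 RPKM with both siRNAs in a line, so their direction there is not set either. In Huh1 these were FLNC (0.0736 and 0.0444 RPKM), COL1A1 (0.115 and 0.0763), CAPG (0.725 and 0.618) and TNNT1 (0 and 0.0283). In Huh7 it was DIAPH2 (0.263 and 0.334 RPKM). No counting interval was made for the list genes. Small differences such as those of FSCN1 (4.22 and 4.33 RPKM) and SSH3 (3.92 and 4.09 RPKM) in Huh1 therefore do not set a direction either.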

How the results depend on the processing

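The line differences of the 4 tropomyosin genes kept their direction under each alternative, and those of TPM2 and TPM4 kept their call under each that gives a test. The difference of TPM1 was 0.484 without an siRNA term and that of TPM3 0.342 without a filter, each no longer past the threshold. Leaving out 1 library leaves no residual degree of freedom, so it gives values with no test for the line and none for the count over both lines. TPM2 then ranged from 5.006 to 5.528, TPM4 from 3.083 to 3.128, TPM1 from 0.453 to 0.516 and TPM3 from 0.287 to 0.397. With quantile normalization TPM4 was 1.49 higher with ODC1 siRNA in Huh7, and the other 23 recomputed siRNA differences of the family stayed within the counting interval. No paired analysis by replicate number was possible because the labels give none; without the line term 0 genes were called higher and 0 lower for ODC1 siRNA, at 22 with an unadjusted p under 0.05.

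Genes at least 2-fold higher numbered 6 in Huh1 and 39 in Huh7, and at least 2-fold lower 3 and 49. With a pseudocount of 0.1 they were 25 and 92 higher and 20 and 144 lower, and with a 1.5-fold rule 110 and 289 higher and 40 and 361 lower. A filter at 5 RPKM left 31 lower in Huh7. Limma called 181 genes higher and 74 lower for ODC1 siRNA; a pseudocount of 0.1 gave 43 and 11, a filter at 5 RPKM 81 and 27, quantile normalization 40 and 12, upper quartile scaling 288 and 195, and no filter or no trend 0 and 0, with 1725 and 1830 genes at an unadjusted p under 0.05. Without a filter 2426 genes were lower in Huh7, against 3708. The cause of these changes was not tested.

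As shares of reads rather than of RPKM, TPM1 held 32.6% and 25.2% in Huh1 and 7.07% and 4.83% in Huh7 with control and ODC1 siRNA, TPM4 36.2% and 55.5%, then 50.6% and 65.9%, and TPM2 37.5% and 26.5% in Huh7 and 3.75% in Huh1 with ODC1 siRNA. TPM3 held 15.6% there and 4.79% and 2.77% in Huh7. Depth limits TPM2 in Huh1, at about 102 to 122 reads.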
